A study of Mus musculus with 12 samples.

Results

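The genes described here encode the proteins of the cytosolic ribosome. They were taken from the count tables by symbol: Rpl, Rps or Rplp followed by a digit, or Rpsa, leaving out symbols with -ps and those that begin with Rps6k, which are kinases. The rule found 93 of 50600 genes, 55 with an Rpl symbol and 38 with an Rps symbol. GENCODE annotates 86 of them as protein-coding, 5 as processed pseudogenes and 2, Rpl37rt and Rps4l, as transcribed processed pseudogenes. Rps19bp1 is a member by its symbol alone, since its product binds the ribosomal protein Rps19 and is not a ribosomal protein itself. Rps27rt, Rps3a2 and Rps3a3 are close copies of other members, with 109, 145 and 86 counts over all 12 libraries.

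The tissue was the cerebral cortex of C57BL/6 mice, from which poly(A)+ RNA was sequenced at 4 ages, the embryonic days E11, E13 and E17 and the day P1 after birth. An age has 3 libraries, named A, B and C, and a library is 1 whole cortex of a single animal, with a different litter for each of the 3. The animals carried no genetic change or treatment that the labels name, and age is the only difference between groups that the labels give. Marker genes of tissue around the cortex also differed between the ages, as given below. Total counts ran from 28173745 to 45858712 per library. The cortical genes Emx1 and Tbr1 averaged 37.5 and 176 counts per 1e6 counts (CPM) at P1 and 104 and 110 CPM at E11, and the hindbrain and spinal cord genes Hoxa2, Hoxb8 and Hoxc8 were at 0 counts in all 12 libraries, with 1, 3 and 1 counts for Hoxa5, Hoxb4 and Hoxd4.

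A cytosolic ribosome is built from a small subunit, which decodes the messenger RNA and carries the Rps proteins, and a large subunit, which forms the peptide bond and carries the Rpl proteins. Each protein is in general needed once per ribosome, and most of their messenger RNAs begin with a run of pyrimidines, the TOP motif, through which mTOR and LARP1 control their translation. Cells that grow and divide make ribosomes at a high rate, and the cortex passes over these ages from a sheet of dividing progenitors to a tissue made largely of neurons. In a bulk sample, fewer cells of a type and less RNA per cell cannot be told apart.

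The members' summed share of all gene counts was lower at every later age. It was 3.24, 3.43 and 3.35% in E11 A, B and C, 3.08, 2.59 and 2.89% at E13, 1.90, 1.89 and 1.93% at E17, and 1.68, 1.69 and 1.59% at P1. No library of an age overlapped with one of another age. The means were 3.34 ± 0.0996% at E11, 2.85 ± 0.245% at E13, 1.91 ± 0.0194% at E17 and 1.65 ± 0.0565% at P1 (SD, n = 3 each). The 38 Rps genes made up 0.681% of the counts at P1 and 1.42% at E11, and the 55 Rpl genes 0.971% at P1 and 1.92% at E11. Rps counts over Rpl counts gave ratios of 0.744 ± 0.00542 at E11, 0.730 ± 0.00523 at E13, 0.701 ± 0.00113 at E17 and 0.701 ± 0.00186 at P1. The ratio was lower in every E17 and P1 library, at 0.699 to 0.702, than in every E11 and E13 library, at 0.724 to 0.750.

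**Figure D1:**
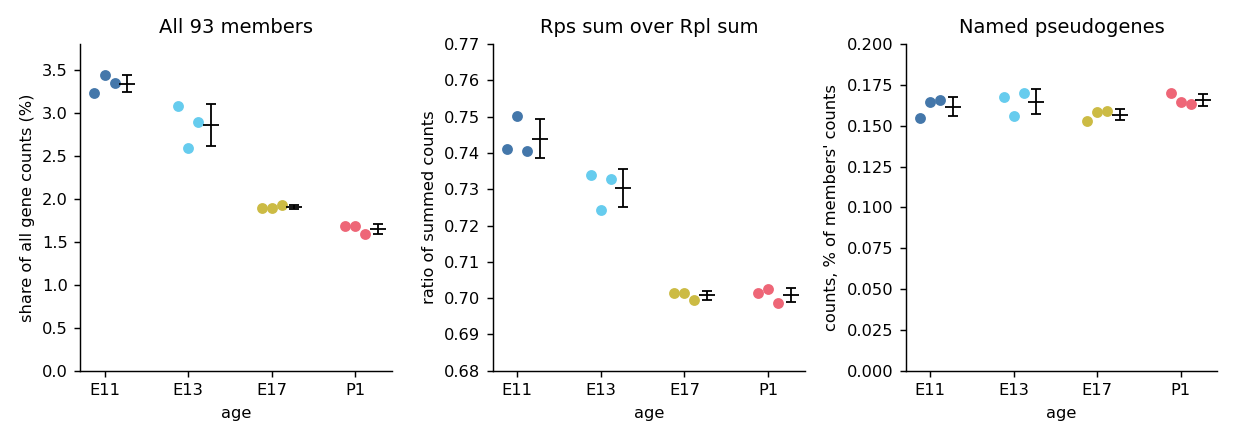
Points are single libraries by age (3 per age), and the bar beside them is the mean with its SD. Left, the 93 members' share of all gene counts in percent, with means of 3.34, 2.85, 1.91 and 1.65% at E11, E13, E17 and P1. Middle, summed Rps counts over summed Rpl counts on an axis that does not start at 0. Right, counts of named ribosomal protein pseudogenes as a percent of the members' counts.

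Genome copies of ribosomal protein genes are many, and reads can be counted to them. Of 283 named pseudogenes, symbols with -ps, 212 had any count. Their sum was lower with age like that of the members, with means of 54.0, 47.1, 29.9 and 27.4 CPM over the 4 ages from E11 to P1, or 0.157 to 0.166% of the members' counts as means of the ages. Adding the counts of each pseudogene to the member it is named after gave median log2 fold changes of -0.19, -0.42, -0.22 and -0.82 for E13 over E11, E17 over E13, P1 over E17 and P1 over E11, against -0.19, -0.41, -0.22 and -0.82 without them.

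Levels of single members were compared as CPM scaled with TMM factors. Of the 93 members, 87 had enough counts to test. Those that did not were Rpl10l, Rpl32l, Rpl39l, Rpl3l, Rpl6l and Rps12l1, with 1, 30, 27, 9, 22 and 2 counts in all libraries together. The median level over the 87 was 299.2 CPM at E11, 262.4 at E13, 203.7 at E17 and 173.3 at P1. The highest mean levels over the 12 libraries were those of Rpl4, a large-subunit protein, Rplp0, the base of the P-stalk, Rps3, which sits at the entry of the messenger RNA channel, Rpsa, also known as a laminin receptor, and Rpl13a. Rpl4 had 779.8, 772.3 and 743.0 CPM at P1, against 1321, 1264 and 1276 CPM at E11. Per kilobase of transcript the order was another one, with Rplp1, Rps15, Rps29 and Rpl8 among the first, at 1282, 927, 794 and 731 CPM per kilobase. The lengths are those of 1 annotated transcript per gene, such as 5179 bases for Rps15a, and the order depends on that choice.

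Between P1 and E11, 85 of the 87 tested members were lower at P1 and 1 was higher (edgeR quasi-likelihood test, adjusted p under 0.05). Over all 17847 tested genes 41.8% were lower and 40.5% higher in this comparison. The members' median log2 fold change was -0.82, against -0.04 for all genes, with a range of -2.14 to 0.41. In 84 members all P1 libraries lay below all E11 libraries, the exceptions being Rps19bp1, Rps27rt and Rps4l. A log2 fold change of -1 or lower was seen in 16 members. The shares of all tested genes that separate in this way or fall by this size were not computed. Rpl14, Rpl35a and Rpl41 lay nearest the median. Rpl14 had 223.5, 217.7 and 222.8 CPM at P1, against 397.4, 396.5 and 376.7 CPM at E11. Rpl35a had 59.0, 62.0 and 57.0 CPM at P1, against 108.4, 105.5 and 99.8 CPM at E11. Rpl41 had 184.0, 179.5 and 194.2 CPM at P1, against 310.4, 337.1 and 334.9 CPM at E11. The P1 and E11 libraries did not overlap in any of these, with adjusted p from 7.20e-09 to 1.35e-07. With scaling by library size alone the median of all genes was -0.26 and that of the members -1.05, so the members lay below it under either scaling.

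**Figure D2:**
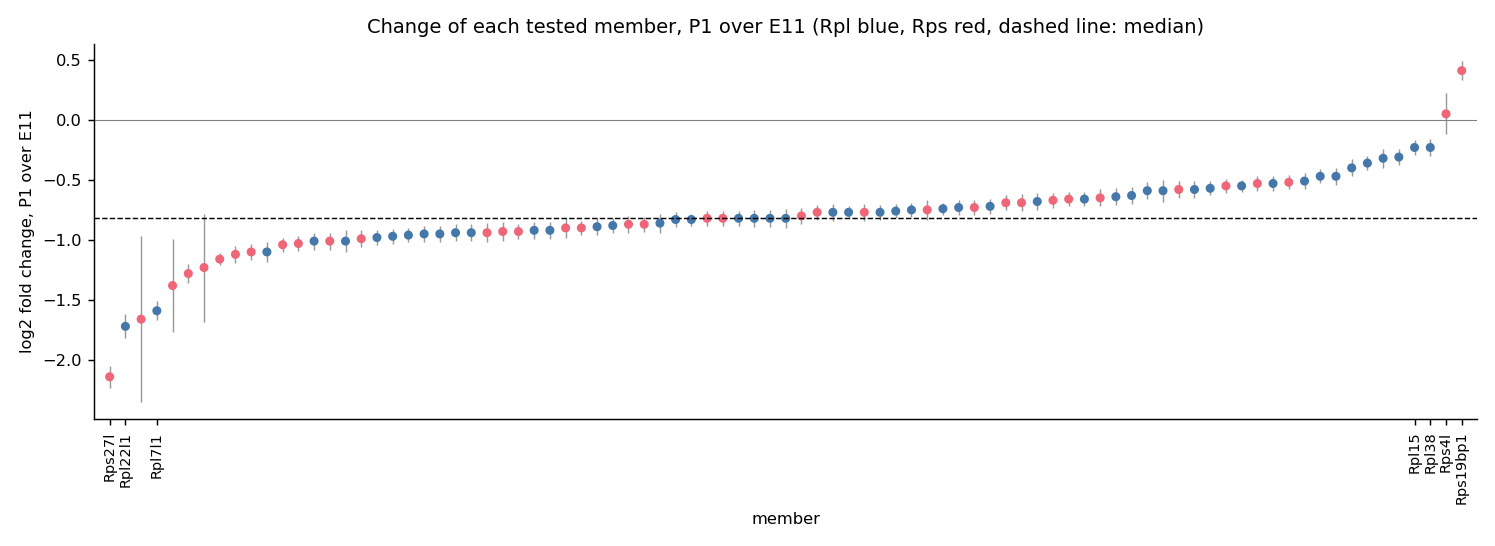
Log2 fold change of P1 over E11 for each of the 87 tested members, ordered from low to high, with standard errors of the edgeR fit as bars. Rpl symbols are blue and Rps symbols red, and the 7 members that departed are named on the axis. The dashed line is the members' median of -0.82. Most members lie close to it, Rps27l is at the low end at -2.14 and Rps19bp1 at the high end at 0.41.

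Members fell at each step, and the steps span unequal times, 2 days from E11 to E13 and 4 days from E13 to E17. Between E17 and E13, 74 members were lower at E17 and 1 higher, while 37.0% of all tested genes were lower and 36.8% higher, and the members' median log2 fold change was -0.41 against -0.04 for all genes. Between P1 and E17, 52 were lower at P1 and 1 higher, with 25.9% of all genes lower and 24.0% higher, and a members' median of -0.22. Between E13 and E11, 49 were lower at E13, with 17.5% of all genes lower and 22.6% higher, and a median of -0.19. No member was called higher in that step by edgeR, DESeq2 or limma-voom, and 0 were higher at an unadjusted p under 0.05. In the test across all 4 ages 84 of 87 members differed, but so did 90.2% of all tested genes. The mean level was lower at each later age in 73 members, while 14 members, among them Rpl15, Rpl22, Rpl38, Rpl41, Rplp1, Rps2 and Rpsa, did not follow that order throughout. The share of all tested genes with that order was not computed.

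**Figure D3:**
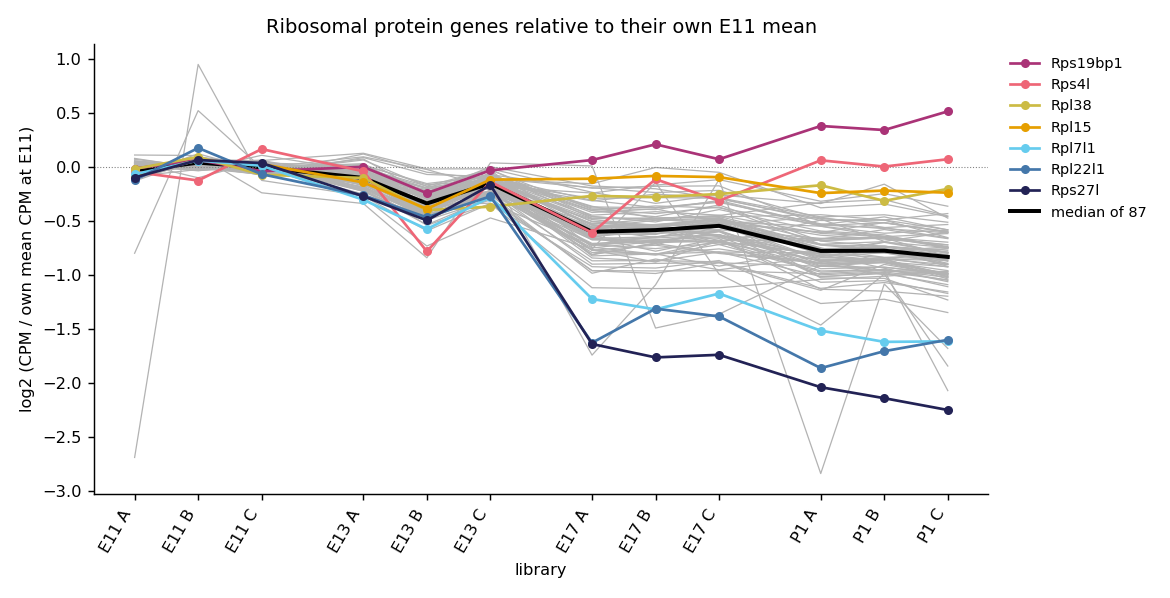
Log2 of the CPM in each library over the member's own mean at E11, for the 87 tested members (grey lines) in the 12 libraries ordered by age, with the median of all 87 in black and the 7 members that departed from it between P1 and E11 in colour. Rps27l, Rpl22l1 and Rpl7l1 run below the median from E17 on, Rps19bp1, Rpl15 and Rpl38 above it from E17 on, and Rps4l above it at P1. The grey lines that swing most between libraries of 1 age are low-count copies such as Rps27rt.

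The E13 to E11 count depended in part on single libraries. E13 B held the lowest level of its age in 83 of 87 members, and E13 A the highest in 70. Without E13 B 27 members were lower at E13, with a median of -0.13, and without E11 B also 27, with a median of -0.17. With 3 libraries left out together, E17 A and the C libraries of E11 and E13, 19 were. Calls over all tested genes, higher and lower together, dropped as well, from 40.1% with all libraries. They were 30.7% without E13 B, 33.1% without E11 B and 26.4% without the 3 libraries. E13 B also had the lowest summed level of 12 genes of dividing cells, 3412 CPM against 3854 and 3926 CPM in E13 A and C, and the highest of 10 neuronal genes, 2990 CPM against 2525 and 2654 CPM. The part of these in the members' levels was not tested.

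Between E13 and E11, Rps2, Rpl7l1, Rpl36al and Rpl12 were among the 5 largest falls that passed the test in members with a mean of at least 1 CPM, with log2 fold changes of -0.40, -0.38, -0.34 and -0.33. Rps2, a small-subunit protein at the entry of the messenger RNA channel, had 531.2, 425.2 and 506.5 CPM at E13, against 640.3, 628.7 and 655.3 CPM at E11. It fell again to 295.0, 293.4 and 294.8 CPM at E17 (log2 fold change -0.73 ± 0.07 SE against E13, adjusted p = 4.40e-07). At P1 it had 311.1, 317.6 and 325.8 CPM, all above the E17 libraries, and the difference did not pass the test (0.11, adjusted p = 0.198). Under the same limit, the largest falls between E17 and E13 were those of Rps27l, Rpl22l1, Rpl7l1, Rps2 and Rpl13a. Rpl13a, which in human cells can leave the ribosome to silence inflammatory messenger RNAs, had 501.4, 479.1 and 521.5 CPM at E17, against 838.6, 708.1 and 822.2 CPM at E13 (-0.66 ± 0.07, adjusted p = 8.46e-07).

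Among members with a mean of at least 1 CPM that passed the test, the largest falls between P1 and E17 were those of Rpl7, Rps6, Rps27l, Rps14 and Rps9, with log2 fold changes of -0.52, -0.46, -0.43, -0.39 and -0.38. Rpl7 had 389.8, 388.7 and 338.3 CPM at P1, against 516.8, 515.2 and 567.4 CPM at E17, with no overlap (adjusted p = 9.32e-05). Rps6, the small-subunit protein that the S6 kinases phosphorylate downstream of mTOR, had 114.8, 113.4 and 109.8 CPM at P1, against 160.3, 146.6 and 159.0 CPM at E17 (adjusted p = 1.58e-05). Against E11, with 248.9, 256.8 and 250.7 CPM, the log2 fold change of Rps6 at P1 was -1.16 ± 0.05, among the 5 largest falls of that comparison in members with a mean of at least 1 CPM. In 64 members all P1 libraries lay below all E17 libraries, a count for which the share of all tested genes was not computed. In 5 members all P1 libraries lay above: Rpl10a, Rplp1, Rps19bp1, Rps2 and Rps4l. Of these, Rps19bp1 alone passed the test with edgeR, while without E13 B 4 members were called higher at P1.

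Members that moved away from the rest were sought on a scale set by the members themselves, on which the typical member is at 0. A departure was an adjusted p under 0.05 over all tested genes together with a log2 fold change of at least 0.5 in size on that scale. Between P1 and E11, 7 members departed, while 72.4% of all tested genes met the same limits. The scale follows the members' own fall, so a gene that did not fall with them lies above 0 on it. The shares of all genes, here and in the other comparisons, partly restate that fall and do not measure how alike the members are. Rps27l (-1.35 ± 0.08), Rpl22l1 (-0.92 ± 0.10) and Rpl7l1 (-0.79 ± 0.06) fell further than the typical member, and Rpl15 (0.56 ± 0.06), Rpl38 (0.57 ± 0.07), Rps4l (0.84 ± 0.14) and Rps19bp1 (1.21 ± 0.08) stayed above it. The highest adjusted p among them was 9.22e-05, and each departed in all 22 alternative analyses run. Just inside the limit lay Rpl15. Without E11 A 11 members departed. Without the limit on size, 23 members lay above the typical member and 21 below. A scale centred on the members tends to give similar numbers on either side, and the share of all tested genes without that limit is not given here.

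Between E17 and E13, 4 members departed, against 57.3% of all tested genes past the same limits. They were Rps27l (-1.02), Rpl22l1 (-0.71), Rpl15 (0.51) and Rps19bp1 (0.60). Without E13 A or E13 B Rpl15 was at 0.49 and no longer counted. Between P1 and E17, 2 departed, against 29.3% of all tested genes. They were Rps19bp1 (0.51) and Rps4l (0.59). Without E17 A neither did, and without E17 C or P1 C Rps19bp1 did not. Between E13 and E11 none departed, against 24.0% of all tested genes, and 0 passed the size limit at an unadjusted p under 0.05, with DESeq2 or with limma-voom. Among members with an adjusted p under 0.05 on that scale, the nearest to the limit in that step was Rpl36, at 0.22.

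Rps27l, Rpl22l1 and Rpl7l1 are paralogs of canonical ribosomal proteins, and each had a lower log2 fold change between P1 and E11 than its partner. Rps27l, known as a target of p53, had 14.7, 13.7 and 12.7 CPM at P1, against 56.5, 63.2 and 62.0 CPM at E11, a log2 fold change of -2.14 ± 0.09 (adjusted p = 3.37e-11). Its partner Rps27, a zinc-finger protein of the small subunit, had 152.5, 152.3 and 138.8 CPM at P1, against 242.9, 280.5 and 250.9 CPM at E11 (-0.80 ± 0.07, adjusted p = 1.17e-07). The largest step of Rps27l was that between E17, at 19.4, 17.8 and 18.1 CPM, and E13, at 50.1, 42.9 and 53.8 CPM (-1.41 ± 0.09, adjusted p = 4.84e-09). Per kilobase of transcript, Rps27l made up 14.0 ± 0.570, 12.5 ± 0.465, 6.58 ± 0.453 and 6.03 ± 0.198% of the pair from E11 to P1 (SD, n = 3 each).

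Rpl22l1 stood at 22.6, 25.2 and 27.1 CPM at P1, against 75.6, 92.9 and 78.5 CPM at E11 (-1.72 ± 0.10, adjusted p = 2.15e-09). Rpl22, an RNA-binding protein of the large subunit, had 267.4, 280.8 and 259.0 CPM at P1, against 318.4, 346.9 and 335.9 CPM at E11 (-0.31 ± 0.07, adjusted p = 0.00089). The P1 and E11 libraries did not overlap for either gene. Rpl22 is the longer transcript, so that Rpl22l1 took a large part of the pair per kilobase: 47.7 ± 1.84, 46.2 ± 0.611, 27.6 ± 1.68 and 25.6 ± 2.11% in the order of the ages. An exon of Rpl22l1 is overlapped by the gene Gm33051 on the opposite strand, and the strand setting of the counting is not given in the sources used here.

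Rpl7l1, a paralog of Rpl7, had 61.7, 57.4 and 57.6 CPM at P1, against 168.4, 183.9 and 177.8 CPM at E11 (-1.59 ± 0.08, adjusted p = 1.47e-10). Rpl7 had 761.7, 829.2 and 796.4 CPM at E11, and its log2 fold change at P1 was -1.10 ± 0.08. The paralog's share per kilobase was 9.02 ± 0.0419% at E11 and 8.42 ± 0.313% at E13, then 5.90 ± 0.197% at E17 and 6.61 ± 0.443% at P1, where Rpl7 itself had fallen again.

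Rpl36al, an autosomal copy of the X-linked Rpl36a, had 14.9, 17.6 and 16.4 CPM at P1, against 30.9, 33.5 and 34.3 CPM at E11 (-1.01 ± 0.09), and Rpl36a had 109.5, 101.1 and 103.5 CPM, against 190.4, 213.6 and 203.3 CPM (-0.95 ± 0.07). The share of Rpl36al per kilobase was 13.0 ± 0.413, 12.2 ± 0.219, 11.7 ± 0.667 and 12.5 ± 1.35% from E11 to P1, and the P1 libraries, at 11.1 to 13.8%, spanned those of E11, at 12.6 to 13.4%. The paralogs known from other tissues, Rpl3l of heart and skeletal muscle and Rpl10l and Rpl39l of testis, had 9, 1 and 27 counts over all libraries, while their partners Rpl3, Rpl10 and Rpl39 averaged 402, 228 and 56.5 CPM at P1.

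Rps4l is annotated as a transcribed processed copy of the X-linked Rps4x. It had 26.0, 24.6 and 30.1 CPM at E11, 26.1, 15.6 and 24.4 CPM at E13, 17.6, 24.8 and 21.6 CPM at E17, and 28, 26.9 and 28.2 CPM at P1. The P1 and E11 libraries overlapped (0.05 ± 0.17, adjusted p = 0.811). Rps4x had 330.8, 314.0 and 310.5 CPM at P1, against 563.8, 574.6 and 546.5 CPM at E11 (-0.82 ± 0.06, adjusted p = 8.82e-09). The share of Rps4l per kilobase was 8.26 ± 0.293% at P1 and 4.72 ± 0.593% at E11. None of the 75-base stretches of the Rps4l transcript, 75 bases being the read length, occurs in a transcript of Rps4x (0.0% of 869). The same holds for Rps27l, Rpl22l1, Rpl7l1 and Rpl36al against their partners. In Rps27rt 90.3% of such stretches occur in Rps27, in Rps3a2 65.5% and in Rps3a3 32.0% occur in Rps3a1, and in Rpl37rt 32.1% occur in Rpl37. Reads from these stretches could be counted to the other gene, so the levels of these copies are uncertain. The same limit holds for the parents, Rps27 among them, and so for the share of Rps27l in its pair.

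**Figure D4:**
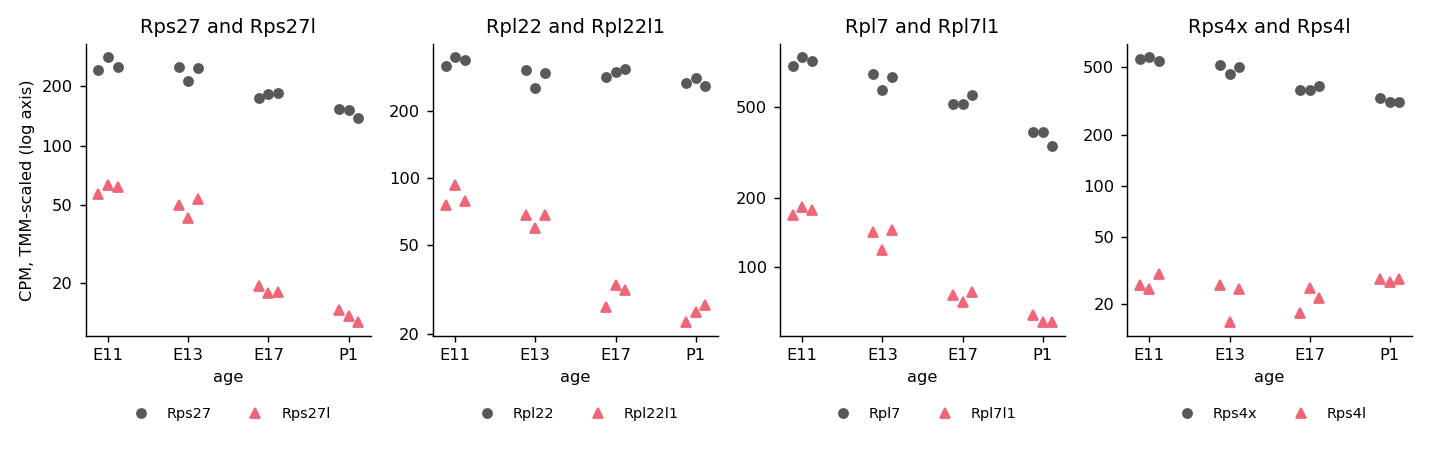
CPM on log axes in each of the 3 libraries per age, for 4 canonical members (grey circles) and their paralog or copy (red triangles). Rps27l, Rpl22l1 and Rpl7l1 are further below their E13 level at E17 than their partners are. Rps4l stays between 15.6 and 30.1 CPM while Rps4x declines.

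The other departing members lay above the typical course. Rpl15, a large-subunit protein, had 205.4, 208.8 and 206.0 CPM at P1, against 228.6, 253.9 and 247.5 CPM at E11, a small fall (-0.23 ± 0.06, adjusted p = 0.00416). Its E17 libraries, at 225.3, 229.4 and 227.6 CPM, lay above those of E13, at 220.0, 185.7 and 224.0 CPM, without passing the test (0.12, adjusted p = 0.122). The gene Nkiras1 overlaps an exon of Rpl15 on the opposite strand.

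Rpl38, a large-subunit protein whose loss in mice disturbs the translation of Hox messenger RNAs, had 78.7, 71.2 and 76.9 CPM at P1, against 87.4, 94.4 and 84.2 CPM at E11 (-0.23 ± 0.07, adjusted p = 0.0113). That fall did not pass without E11 B (-0.18, adjusted p = 0.0534) or without P1 B (-0.16, adjusted p = 0.0976), with adjusted p up to 0.0976 over all its alternatives. Between E13 and E11 its log2 fold change was -0.29 (adjusted p = 0.00832), and neither E17 over E13 (0.02, adjusted p = 0.841) nor P1 over E17 (0.04, adjusted p = 0.701) passed the test.

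Rps19bp1, the Rps19-binding protein, was the only member called higher at a later age in the edgeR fit to all libraries. It had 17.8, 18.8 and 17.5 CPM at E11, 18.0, 15.2 and 17.6 CPM at E13, 18.8, 20.8 and 18.9 CPM at E17, and 23.4, 22.8 and 25.7 CPM at P1. The P1 libraries lay above all others. The log2 fold change was 0.41 ± 0.08 for P1 over E11 (adjusted p = 0.000365) and 0.30 ± 0.08 for P1 over E17 (adjusted p = 0.00904). For E17 over E13 it was 0.20 (adjusted p = 0.0402), which was lost in 10 alternatives, among them without E13 B (0.13, adjusted p = 0.156) and without E17 B (0.16, adjusted p = 0.147). Scaled by library size alone, P1 over E11 was at 0.18 (adjusted p = 0.0538).

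The sequence around the transcription start is shown for 6 of the 7 departing members, for Rps27 and Rpl22 as partners of paralogs and for 2 others with a clear pyrimidine run (Rplp2 and Rpl35), because the TOP motif begins there. Each line gives 60 bases before and 20 bases from the start of the RefSeq transcript in GRCm38.p6, 5′ to 3′ on the strand of the transcript. Capitals mark CTTTC, a core of pyrimidine runs at ribosomal protein starts, and CCGGAAG, a binding word of ETS-family factors.
Rplp2, chr7:141447591-141447670, plus strand: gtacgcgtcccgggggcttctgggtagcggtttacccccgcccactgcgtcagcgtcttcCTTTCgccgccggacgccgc
Rpl35, chr2:39005112-39005191, minus strand: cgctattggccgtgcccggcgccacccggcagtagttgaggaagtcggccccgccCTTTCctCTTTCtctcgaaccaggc
Rpl38, chr11:114668520-114668599, plus strand: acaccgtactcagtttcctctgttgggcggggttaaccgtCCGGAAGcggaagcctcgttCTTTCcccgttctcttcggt
Rpl15, chr14:18270967-18271046, minus strand: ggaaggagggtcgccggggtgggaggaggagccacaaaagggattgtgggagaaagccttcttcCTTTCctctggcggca
Rps27, chr3:90213629-90213708, minus strand: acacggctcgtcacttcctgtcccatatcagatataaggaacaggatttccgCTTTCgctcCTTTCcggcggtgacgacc
Rps27l, chr9:66946026-66946105, plus strand: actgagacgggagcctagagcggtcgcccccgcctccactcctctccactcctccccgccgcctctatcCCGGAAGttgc
Rpl22, chr4:152325666-152325745, plus strand: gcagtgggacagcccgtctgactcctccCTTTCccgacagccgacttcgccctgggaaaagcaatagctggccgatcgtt
Rpl22l1, chr3:28805448-28805527, plus strand: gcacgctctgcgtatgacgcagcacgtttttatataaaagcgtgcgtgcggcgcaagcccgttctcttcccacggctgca
Rpl7l1, chr17:46782637-46782716, minus strand: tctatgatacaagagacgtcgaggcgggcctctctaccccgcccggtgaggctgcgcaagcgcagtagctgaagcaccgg
Rps19bp1, chr15:80264287-80264366, minus strand: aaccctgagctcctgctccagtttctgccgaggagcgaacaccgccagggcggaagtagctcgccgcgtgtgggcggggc

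In these stretches the canonical Rps27 and Rpl22 and the members Rpl15 and Rpl38 hold CTTTC, while Rps27l, Rpl22l1, Rpl7l1 and Rps19bp1 do not. In Rpl22 the word lies before the start, outside the RefSeq transcript. Rpl22l1 has a pyrimidine run next to its start that lacks CTTTC, so the word is not a test for the TOP motif. Rpl22 and Rps27l have 2 start windows each, of which the first is shown. Over the 68 members in the table, which have 80 windows, CTTTC lay within 50 bases of the start on the transcript strand in 47.5% of member windows, against 12.8% of all 32851 windows. On the opposite strand it was 11.2% and 12.1%. CCGGAAG lay anywhere in the 300-base window in 22.5% of member windows on the transcript strand and 12.5% on the opposite strand, against 4.77% and 4.79% of all windows. The words can overlap by a single base at most. Members with CTTTC and members without it had near the same change: a median log2 fold change of -0.77 over 33 tested members with it and of -0.82 over 31 without it for P1 over E11, and of -0.41 and -0.42 for E17 over E13. A match is a string of letters and not a mapped site, and RefSeq starts need not be the main start in this tissue.

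The P-stalk, which recruits the GTPases of translation, is formed by Rplp0, Rplp1 and Rplp2. All of them were lower at P1 than at E11, as were 85 of the 87 tested members and 41.8% of all tested genes. Their log2 fold changes were -0.66 ± 0.06, -0.47 ± 0.07 and -0.58 ± 0.07, with a median of -0.58 against -0.82 for all members. All 3 P-stalk genes also fell between E17 and E13, where 74 members and 37.0% of all tested genes were lower. None passed the test between E13 and E11 (-0.07, -0.19 and -0.04), but Rplp1 (adjusted p = 0.0543) passed in 10 alternatives, among them DESeq2 (adjusted p = 0.0278), limma-voom (adjusted p = 0.0399), and without E11 A (-0.24, adjusted p = 0.0316), E13 C (-0.24, adjusted p = 0.0291), P1 B or P1 C. Rplp1 had 558.8, 559.6 and 582.9 CPM at P1, against 521.9, 534.8 and 483.2 CPM at E17, without overlap and without passing the test (0.14, adjusted p = 0.116). Between P1 and E17, Rplp0 was the P-stalk gene that passed the test (-0.20, adjusted p = 0.0134), but not without E17 C (-0.17, adjusted p = 0.0601) or P1 C (-0.14, adjusted p = 0.107).

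Rpl5 and Rpl11 form a particle with the 5S ribosomal RNA and, when free, bind Mdm2, the ubiquitin ligase of p53. Both were lower at the later age in all 4 comparisons, though Rpl11 did not pass between E13 and E11 with the 3 libraries left out together (-0.26, adjusted p = 0.0522). Rpl5 had 223.8, 228.1 and 216.7 CPM at P1, against 429.4, 467.6 and 446.9 CPM at E11 (-1.01 ± 0.07, adjusted p = 4.71e-09). Rpl11 had 180.8, 182.7 and 173.7 CPM at P1, against 339.6, 346.9 and 357.1 CPM at E11 (-0.96 ± 0.06, adjusted p = 4.92e-09).

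In Diamond-Blackfan anaemia, an inherited failure of red cell formation, the human counterparts of 18 members are mutated. All 18 were lower at P1 than at E11, against 41.8% of all tested genes and 85 of the 87 tested members. Their median of -0.82 equals that of all members. The X-linked members Rpl10, Rpl36a, Rpl39 and Rps4x were also lower at P1. Rpl10, a late-joining protein of the large subunit, fell by 0.40 on the log2 scale (adjusted p = 9.41e-05) between P1 and E11. It did not pass the test between E13 and E11 or between E17 and E13 (-0.01 and -0.06), although scaled by library size alone E17 over E13 was at -0.24 (adjusted p = 0.00573), and it fell between P1 and E17 (-0.32 ± 0.07, adjusted p = 0.0014). By subunit, 35 of 37 tested Rps genes and all 50 tested Rpl genes were lower at P1 than at E11, against 41.8% of all tested genes. The medians were -0.87 and -0.77. Between E17 and E13 the medians were -0.45 and -0.39.

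Genes that work with the ribosome were counted in lists. Of 18 other TOP and elongation genes, 15 were lower at P1 than at E11 and 2 higher, against 41.8% lower and 40.5% higher over all tested genes, with a median log2 fold change of -0.53. The histone chaperone Nap1l1 (-1.94 ± 0.07) and Naca (-1.20 ± 0.08), of the nascent chain complex, fell most. The helicase Eif4a2 rose (1.18 ± 0.08, adjusted p = 4.03e-09), and the elongation factor Eef2 rose by a small amount (0.19 ± 0.06, adjusted p = 0.0106) that did not pass without E11 C (0.13, adjusted p = 0.0711). With scaling by library size alone Eef2 was at -0.04. The general elongation factor Eef1a1 averaged 5910, 5580, 4990 and 4140 CPM over the ages from E11 to P1, and fell by 0.51 on the log2 scale between P1 and E11. Its neuronal and muscle counterpart Eef1a2 had 1.90, 14.1, 125 and 220 CPM, a log2 fold change of 6.86 ± 0.20 for P1 over E11 (adjusted p = 8.75e-12).

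Of 27 ribosome biogenesis factors, which process ribosomal RNA and assemble the subunits, 24 were lower at P1 than at E11 (41.8% of all tested genes) and 2 higher (40.5%), with a median of -0.73. Npm1, a nucleolar chaperone, had an average of 240 CPM at P1 and 1140 CPM at E11 (-2.25 ± 0.09, adjusted p = 1.99e-11). Dkc1, the pseudouridine synthase of box H/ACA particles, had 33.0 CPM at P1 and 149 CPM at E11 (-2.17 ± 0.08, adjusted p = 8.91e-12). Bop1 rose (0.23, adjusted p = 0.000971), though to 0.00 with scaling by library size alone. Bysl rose by 0.13 (adjusted p = 0.0371), a call that was lost without E11 A, E11 B, E11 C or P1 C, at adjusted p of 0.0502 to 0.118, and its value was -0.10 with scaling by library size alone. Between P1 and E17, 6 factors were higher and 6 lower, near the 24.0% and 25.9% of all tested genes, and the list's median was -0.04.

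**Figure D5:**
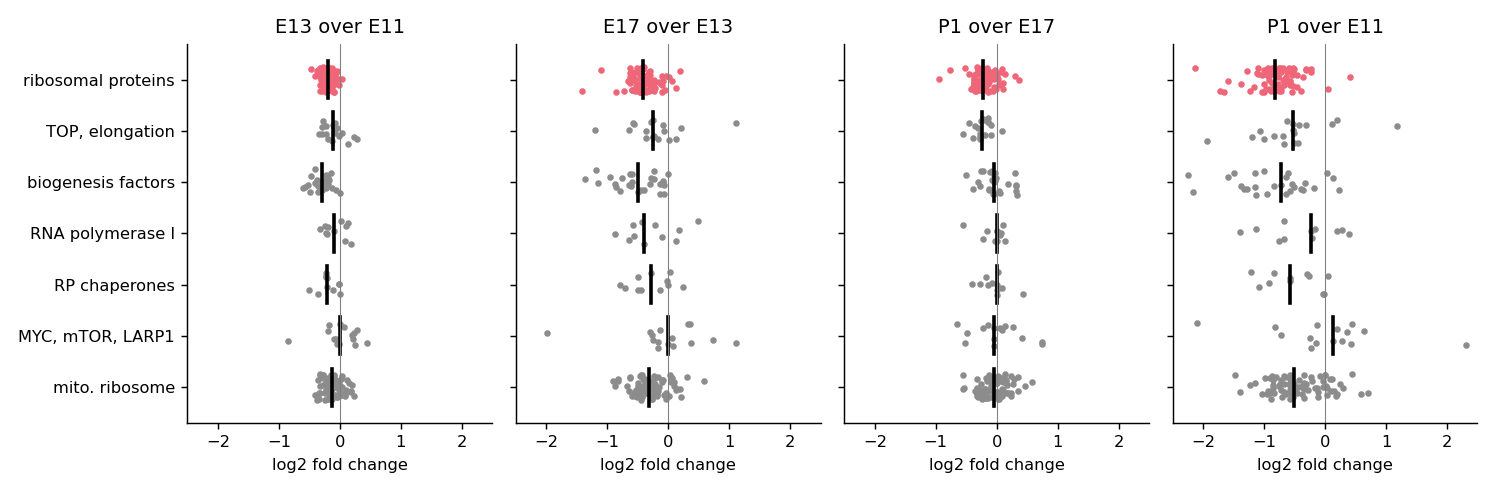
Log2 fold changes (edgeR) in the 4 comparisons, later over earlier age, for the 87 tested ribosomal protein members (red) and the genes of 6 lists (grey), with the median of each as a black bar. The axis is limited to -2.5 to 2.5, which holds every point drawn. In P1 over E17 the members and the TOP and elongation list have medians of -0.22 and -0.24, and the biogenesis list and the mitochondrial ribosome have medians of -0.04.

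RNA polymerase I transcribes the ribosomal RNA genes. Of its 11 subunits and factors 7 were lower at P1 than at E11 and 3 higher, against 41.8% lower and 40.5% higher over all tested genes, with a median of -0.23. Polr1c fell by 1.40 and Taf1d by 1.13 on the log2 scale. Polr1d rose by 0.39 (adjusted p = 1.72e-05), and Taf1c by 0.27 (adjusted p = 0.00504), which scaled by library size alone was at 0.04 (adjusted p = 0.65). Of 11 chaperones and importers of ribosomal proteins 8 were lower, against the same 41.8% of all genes, with a median of -0.57, led by the importin Tnpo1 (-1.22) and by Bccip (-1.09).

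Of 15 genes of the MYC, mTOR and LARP1 pathways, 8 were higher at P1 than at E11 and 7 lower, where 40.5% of all tested genes were higher and 41.8% lower, so the counts are near the background. Their median was 0.13, and -0.10 with scaling by library size alone. Myc rose, with an average of 53.8 CPM at P1 and 10.8 CPM at E11 (2.31 ± 0.09, adjusted p = 1.73e-11). Its relative Mycn, named after its values were seen, fell and had the higher level at both ages, with 90.9 CPM at P1 and 151 CPM at E11 (-0.73 ± 0.08, adjusted p = 6.66e-07). Tsc2, a brake on mTOR, rose by 0.63. Eif4ebp1, a repressor of cap-dependent translation under mTOR, had 3.21 CPM at P1 and 13.8 CPM at E11 (-2.10 ± 0.14), and Eif4ebp2, the form that prevails in brain, fell by 0.82.

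The mitochondrial ribosome is built from other genes. Of 78 tested Mrpl and Mrps genes, 56 were lower at P1 than at E11 (41.8% of all tested genes) and 5 higher (40.5%), with a median of -0.52. Mrpl13 (-1.48) and Mrps14 (-1.39) fell most, while Mrps26 (0.70) and Mrpl48 (0.59) rose. Between P1 and E17, 19 were lower and 9 higher, against 25.9% lower and 24.0% higher over all tested genes, with a median of -0.04.

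Cell types changed over the same ages. All 12 genes of dividing cells were lower at P1 than at E11 (median -4.19), with summed levels of 230 to 255 CPM at P1 and 4383 to 4556 CPM at E11. Between E17 and E13 their sums were 464 to 630 CPM at E17 and 3412 to 3926 CPM at E13. All 10 neuronal genes were higher at P1 than at E11 (median 4.16), with sums of 10203 to 10687 CPM at P1 and 1333 to 1558 CPM at E11. Of 8 radial glia genes 6 were lower at P1 and 2 higher, against 41.8% lower and 40.5% higher over all tested genes. The part of these cell types in the members' fall was not tested.

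Genes of tissue around the cortex were also higher in the early libraries. All 8 meningeal genes were lower at P1 than at E11 (median -4.96), against 41.8% of all tested genes. Their sums were 1272 to 1578 CPM at E11, 848 to 1152 CPM at E13, 15.0 to 18.1 CPM at E17 and 14.1 to 51.8 CPM at P1. Of 7 choroid plexus genes 6 were lower at P1 than at E11 and 1 higher, against 41.8% and 40.5% of all tested genes. They summed to 1.71 to 2.35 CPM at P1 and 105 to 293 CPM at E11, and to 0.959 to 8.64 CPM at E17 and 45.7 to 428 CPM at E13. Erythroid genes, which include the globins, summed to 41.9 to 77.9 CPM at P1 and 6265 to 17686 CPM at E11, and at E13 to 830 to 1855 CPM. With the erythroid genes removed before scaling the members' medians were again -0.19, -0.41, -0.22 and -0.82 in the 4 comparisons. That step takes out the listed erythroid genes alone, so any reads of the members from erythroid cells stay in the counts. The part of erythroid cells and of meningeal and choroid plexus tissue in the members' levels was not tested.

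Over 83 protein-coding members, Pearson's r between log2 fold change and transcript length was -0.08 to 0.08 in the 4 comparisons. With the GC content of the transcript it was 0.29 for E13 over E11, 0.12 for E17 over E13, 0.38 for P1 over E17 and 0.35 for P1 over E11, where members with a higher GC content tended to have the smaller fall. These are descriptions over genes measured in the same libraries. Of the 93 members, 24 have an exon overlapped by another gene, small RNAs aside, 5 of them on the same strand (Rpl13a, Rpl19, Rpl24, Rpl36al and Rps10). Rpl38, Rps27l, Rpl7l1, Rps19bp1 and Rps4l have none.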

How the data were processed

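The deposited values are raw read counts per Ensembl gene, without normalization, 1 table per library. Per the labels' protocols, poly(A)+ RNA from 1 µg of total RNA was made into libraries with a stranded kit and sequenced as 75 bp single reads, 12 libraries together. Per the submitters' processing notes the tools, with no role or order stated, included STAR 2.5.2b, HTSeq 0.5.3, bcl2fastq 2.18, DESeq2 1.8.1 and SAMtools. Neither the genome build nor the annotation release or strand setting is given in the sources used here.

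Symbols, biotypes and transcript lengths were taken from GENCODE M21 (GRCm38) and promoter windows from RefSeq (GRCm38.p6), where 68 members were found. Lengths are those of 1 transcript per gene, chosen by annotation rank and not by use in this tissue. The paralog shares and the correlations with length rest on that choice. Transcripts of GENCODE M21 were searched for 75-base stretches shared between a copy and its parent. Of 50600 identifiers 224 had no symbol, with 0.067 to 0.088% of the counts. Libraries of 1 age differed beyond sampling noise, with chi-squared values of 10.23 to 29.81 per degree of freedom, and each counted as 1 replicate.

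Counts were analysed with edgeR 4.0.16 in R 4.3.3. filterByExpr (minimum count 10, age as group) kept 17847 genes, TMM factors lay between 0.92 and 1.094, and the 12 libraries went into a single quasi-likelihood fit (robust) in which each age has its own coefficient. P-values are two-sided and adjusted over every tested gene (Benjamini-Hochberg, threshold 0.05), and fold changes carry the standard error of the fit. A second fit set the scale of each library to the median ratio of the tested members. Both fits were run on simulated data in which a small random set of genes was changed at P1 alone. Far more genes differ in the real libraries, so the simulation does not test the scaling under such a shift. Summed shares and marker sums are percent and CPM of all gene counts. With 3 libraries per age, p-values rest on a spread shared between genes (common biological coefficient of variation 0.106).

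The members, lists and motifs were chosen with earlier results of these data known. Members were named if they were among the 5 largest falls or rises past the threshold in a comparison with a mean of at least 1 CPM, belonged to a paralog pair, the P-stalk, the X-linked or 5S group, had the highest levels, lay nearest the median, departed, or failed the filter; from each list the 2 largest rises and falls between P1 and E11 were named, with Eef1a1 and Eef1a2. Some genes that this rule names are not reported here. Alternatives were RLE, upper-quartile and no factors, TMM without the members, no filter, 1 CPM in 3 libraries, only the ages compared, a replicate block, DESeq2 1.42.0, limma-voom (limma 3.58.1), erythroid genes removed, pseudogene counts added, E17 A with E11 C and E13 C left out (a set chosen in an earlier analysis after seeing the data), and each library left out in turn.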

Additional observations from a re-analysis of the deposited data

How the results depend on the processing

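The members' medians stayed negative in all 4 comparisons under every alternative run. Counts of members called lower stayed within 1.5 times except between E13 and E11, where leaving out 1 library gave 27 to 60 members, against 49, and leaving out 3 libraries together, E17 A and the C libraries of E11 and E13, gave 19. The members called higher are few, and their counts moved. For E17 over E13 the 1 member became 0 with upper-quartile factors, library size alone, the 1 CPM filter, the replicate block, the 3 libraries left out and only the ages compared, and 0 to 1 when 1 library was left out. For P1 over E17 the 1 became 2 with DESeq2, 0 without the 3 libraries and 4 with only the ages compared, and 1 to 4 when 1 library was left out. For P1 over E11 it became 0 with library size alone. Departures between P1 and E17 were 1 with summed counts as the scale, 0 without the 3 libraries and 0 to 2 when 1 library was left out, and between P1 and E11 they were 7 to 11. The cause was not tested.

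The replicate letters name different litters, and the check of pairing gave correlations of -0.442 to 0.403 between libraries with the same letter and -0.404 to 0.387 between others, with 4 of 12 libraries closest to their own letter. With the letter as a replicate block the median of the members for P1 over E11 was -0.82, as without it, and 0 members were called higher for E17 over E13.

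Signs that turned belong to values that passed no test in either analysis, except Bysl and Eef2. With library size alone Rpl15 was at -0.07, Rpl22 at -0.13 and Rpl38 at -0.17 for E17 over E13, and Rps4l at -0.18, Bysl at -0.10 and Eef2 at -0.04 for P1 over E11. With upper-quartile factors Rpl22 was at -0.02, Rpl38 at -0.06 and Rps4l at -0.05, and Rpl12 at 0.02 for P1 over E17. Rpl12 was at 0.01 there with RLE factors, DESeq2 and the 1 CPM filter. Without the 3 libraries Rpl38 was at -0.02, Rps4l at 0.15, Rplp2 at 0.03 and Rpl10 at 0.00. Leaving out 1 library at a time gave ranges across 0. They were -0.02 to 0.11 for Rpl22, -0.04 to 0.12 for Rpl38, -0.24 to 0.10 for Rps4l and -0.11 to 0.01 for Rpl10 in E17 over E13, and -0.02 to 0.13 for Rps4l in P1 over E11. They were -0.08 to 0.04 for Rpl10 in E13 over E11 and -0.01 to 0.02 for Rpl12 in P1 over E17. Rplp2 reached 0.04 in E13 over E11 and Rpl36al 0.02 in P1 over E17.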
